A study of Drosophila melanogaster with 48 samples.

Results

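The genes described here are 43 protein-coding genes of Drosophila melanogaster that still carry only a computed-gene number (CG followed by digits) as their symbol and whose RNA was higher in old than in young brains of all 4 kinds of sham-treated fly. They were selected on the sham libraries by 3 conditions: a symbol of CG plus digits, a mean of at least 5 CPM (counts scaled to a common column total of 1000000) over the 24 sham libraries, and a rise of at least 1.5-fold (expressed below on the log2 scale) from day 4 to day 45 in each kind of fly, computed from group mean CPM with 0.5 CPM added. Of 6080 CG-numbered genes in the tables, 2284 reached 5 CPM, and 43 of these met the condition on the rise. By the same condition 18 CG-numbered genes fell in all 4 kinds. Among 8118 features of any name at 5 CPM or more, 218 rose in this way.

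RNA was sequenced from dissected brains of flies bred from nSyb-GAL4 males and w1118 females, so that all groups, controls included, carry the pan-neuronal nSyb-GAL4 driver with no UAS target, and the labels call them WT. The kinds of fly were males (M), females mated to wildtype males (F), virgin females (V) and females mated to SP0 males, which lack sex peptide (SP). Each kind was given a very mild head trauma on day 3 by headfirst impacts (D3Inj) or was placed in the same device without impacts (sham), and brains were taken on day 4 or day 45, that is 1 or 42 days after the injury. This gave 16 groups of 3 libraries, 48 in all, each made from an independent cohort of 40 flies pooled, and the 4 kinds of sham fly on the 2 days are the 24 libraries that chose the genes.

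Genes keep a CG number in the fly as long as no name has been given to them from a mutant phenotype, a biochemical activity or a clear relative in other animals. Ageing of the fly brain is known for lower expression of synaptic and mitochondrial genes and higher expression of genes of immunity and stress, and RNA of tissues attached to the brain, above all the fat body of the head capsule, is commonly found in such samples. For 6 of the 43 genes the RefSeq gene table gives a second name that points to a protein family, and these come first below. For the other 37 no role is stated here. All measurements are of bulk tissue, in which fewer cells of a type and less RNA per cell cannot be told apart.

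Libraries held 21495740 to 60637359 counts (median 35543946), and the lowest count of any of the 43 genes in any library was 17. For 47 of 48 tables the column header names another sample than the deposit's record does, and the header was followed. By the header 0 libraries went against their sex, since the summed level of the 2 male dosage-compensation RNAs roX1 and roX2 was at least 5552 CPM in male and at most 60.2 CPM in female libraries, whereas by the record 20 would have gone against it. By the record no gene would meet the rule. Injury status and the mating state of females cannot be checked in this way, and the day of the header was not checked. The brain markers were present in every library: 10 neuronal genes summed to 16051 to 17699 CPM on day 4 and 12056 to 13547 CPM on day 45, and 8 glial genes to 2702 to 3539 and 2161 to 2724 CPM. Sums of the markers of other tissues and cells went both ways. From day 4 to day 45 the median sum went from 2953 to 4561 CPM for 11 fat body genes, from 3149 to 5034 CPM for 3 yolk genes and from 101 to 234 CPM for 10 muscle genes. It went from 1791 to 1293 CPM for 9 hemocyte genes and from 1051 to 1095 CPM for 16 photoreceptor genes. Of the photoreceptor sum, norpA alone made up 543 to 774 CPM (median 648), so that the sum mostly follows this gene. On day 4, 4 libraries stood apart by gut genes (replicates 2 and 3 of sham V, 3 of sham F and 3 of D3Inj M), with a sum of up to 1755 CPM against a median of 14.5 CPM over the day, and without them 37 genes would have met the rule, 35 of them among the 43. Antimicrobial peptide genes set 6 libraries apart. They summed to 80 to 124 CPM in replicates 2 and 3 of sham V, 3 of D3Inj V and 2 and 3 of sham SP on day 4 (median 7.52 CPM) and to 88.4 CPM in replicate 2 of sham M on day 45 (median 10.5 CPM). That library was also the highest of its day in gut genes (197 CPM against a median of 9.62). Without these 6, an alternative added after the data were seen, 38 genes would have met the rule, 30 of them among the 43. On the scale of column totals, which the rule uses, the median of all 8118 features itself rose by 0.143 (M), 0.127 (F), 0.118 (V) and 0.0822 (SP) on the log2 scale, and on library sizes scaled by the trimmed mean of M values (TMM) by 0.00143 to 0.00853. Scaled by TMM, 24 of the 43 genes would have met the rule. All fitted differences below use TMM and are relative to that scale.

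In the sham libraries, as the selection requires, every gene was higher on day 45. The median rise of the 43 genes was 0.984 in M, 0.861 in F, 0.845 in V and 0.817 in SP on the log2 scale, and 9 genes rose by at least 1, a doubling, in all 4 kinds. Per kilobase of exon, CG9686 had the highest mean sham level (385 CPM per kb), followed by CG40470 (72.5), CG9377 (63.4), CG6356 (63.3) and CG33144 (59.3). The genes just inside the threshold had a smallest rise of 0.596 (CG1146), 0.590 (CG15356) and 0.586 (CG9953), and those just outside it of 0.584 (CG2493), 0.582 (CG31678) and 0.582 (CG8064).

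The D3Inj libraries were not used to choose the genes, so ageing could be tested in them. They are not shown to be independent of the sham libraries, with which they shared the fit and its estimate of the spread. The study states that experimental and control flies were handled at the same time, and pairing of D3Inj with sham libraries was not tested. Between day 4 and day 45 after D3Inj, 35 of the 43 genes were called higher in M, against 14.5% of all features tested. In F 38 were called (16.6% of all features), in V 39 (14.1%) and in SP 38 (16.8%), and in no kind was any of the 43 called lower, against 14.9% of all features in M, 15.5% in F, 12.8% in V and 15.2% in SP. The median fitted log2 difference of the 43 was 0.65 in M, 0.75 in F, 0.72 in V and 0.71 in SP, beside 0.01, -0.01, 0.01 and 0.01 for all features. In all 4 kinds 33 genes were called higher, against 7.74% of all features. The 3 day 45 libraries lay above the 3 day 4 libraries for 39 genes in M (44.3% of features at 5 CPM or more), 41 in F (41.5%), 40 in V (38.6%) and 40 in SP (40.2%), and for 35 genes in all 4 kinds (25.0%). All 12 old libraries lay above all 12 young ones for 29 genes (17.4%). A 1.5-fold rise by the measure of the rule was present in all 4 kinds after D3Inj for 27 genes (2.66%). Without the 4 libraries high in gut genes, 36, 38, 39 and 37 genes were called higher in M, F, V and SP, and without the 6 high in antimicrobial peptide genes 35, 38, 36 and 39. Calls are at a Benjamini-Hochberg adjusted p under 0.05 in edgeR's quasi-likelihood test over 15640 features. Here and below, shares of called features include features under the 5 CPM that the rule asked of the 43 genes.

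**Figure D1:**
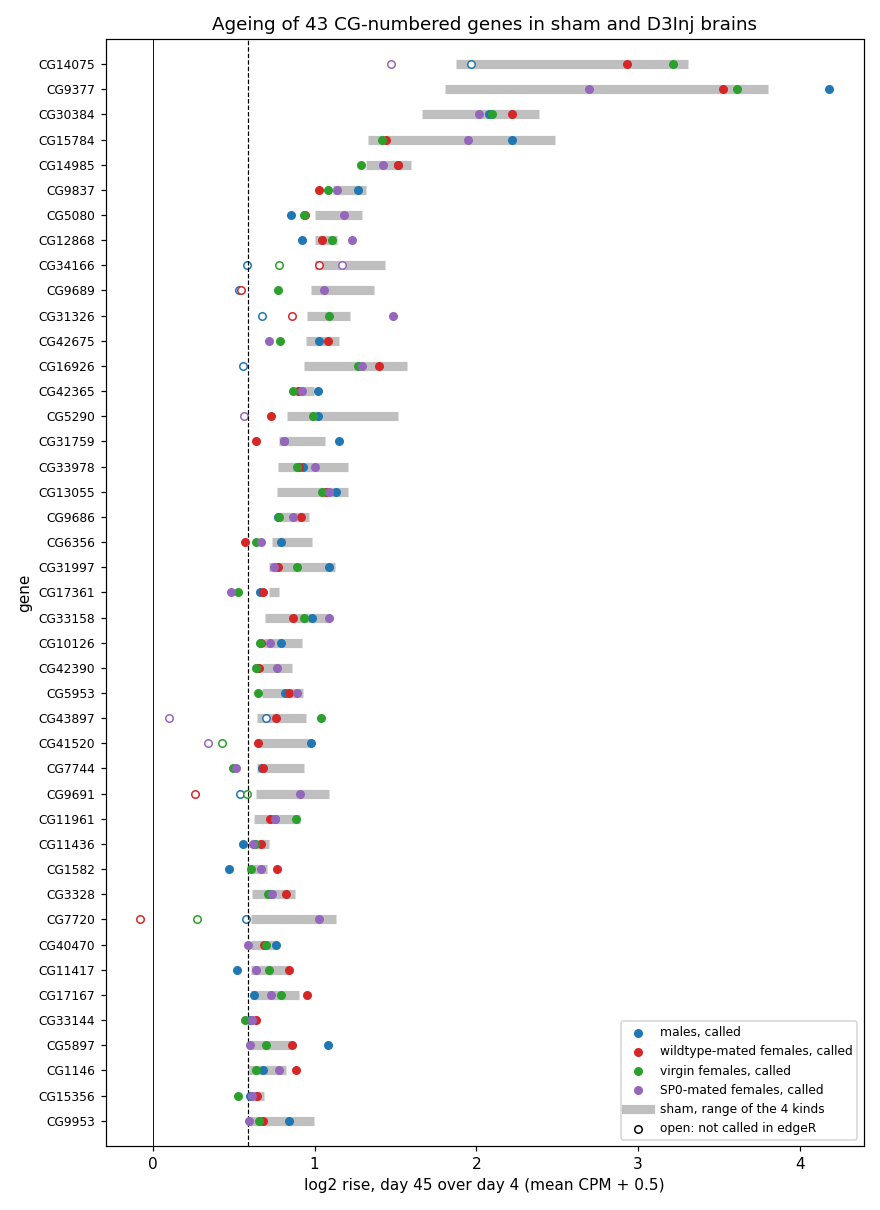
The horizontal axis gives the log2 rise from day 4 to day 45 of mean CPM plus 0.5, and each row is one of the 43 genes, ordered by the smallest sham rise. Grey bars span the 4 sham rises that chose the genes, coloured dots are the 4 kinds of D3Inj fly, filled where edgeR called the fitted difference, and the dashed line is the threshold of 1.5-fold. Of the genes, 33 have 4 filled dots, and CG34166 has none.

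The largest rise after D3Inj was that of CG9377 (c-SPH166 in RefSeq, chr2L:13359901-13361565, minus strand in BDGP6), a clip-domain serine protease homolog, a family known from the proteolytic cascades of the hemolymph. In M it measured 23.1, 6.56 and 4.59 CPM in the 3 libraries of day 4 and 239, 237 and 170.4 CPM on day 45. In F it measured 10.2, 24 and 8.01 against 160.2, 192 and 148 CPM, and in V 17.4, 6.79 and 3.71 against 112, 119 and 127 CPM. In SP it measured 24.2, 22.3 and 12.4 against 118, 134 and 139 CPM, so that in no kind did the days overlap, and the lowest old library of all was above the highest young one. The fitted log2 differences were 4.06 in M (SE 0.52), 3.47 in F (SE 0.51), 3.61 in V (SE 0.52) and 2.66 in SP (SE 0.50), with edgeR adjusted p of 5.26e-08, 7.88e-07, 6.89e-07 and 4.69e-05. In sham flies the gene had a lowest, median and highest level of 8.14, 13.7 and 30 CPM on day 4 and 40, 122 and 261 CPM on day 45. Within day 4 its libraries were spread widely, and its pooled standard deviation within groups was 0.66 on the log2 scale, against 0.06 for CG33144, the tightest of the 43.

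CG31326 (SPH144), a serine protease homolog on chromosome arm 3R, was far less regular. After D3Inj it measured 5.37, 6.24 and 5.01 CPM on day 4 and 10.6, 10.6 and 6.22 CPM on day 45 in M, and 7.23, 2.98 and 8.79 against 10.9, 12.3 and 12.4 CPM in F. In V the levels were 2.45, 4.61 and 9.09 against 10.5, 13.1 and 12.5 CPM, and in SP 4.42, 5.79 and 3.95 against 17.1, 10.6 and 14.6 CPM. The old libraries lay above the young ones in F, V and SP, while in M they overlapped, and the highest young V library, at 9.09 CPM, was close to the lowest old one. The fitted log2 differences were 0.58 in M (SE 0.36), 0.81 in F (SE 0.36), 1.05 in V (SE 0.36) and 1.51 in SP (SE 0.37), with edgeR adjusted p of 0.252, 0.0851, 0.027 and 0.00162, so that it was called in V and SP. The call in V was lost when any of 4 of the libraries was left out, with values down to 0.71 (edgeR adjusted p = 0.192) without replicate 1 of day 4. In F the call was gained without replicate 3 of day 4, at 1.14 (edgeR adjusted p = 0.0387).

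CG6356 carries the RefSeq synonyms OCTN2 and Slc22a16 and so belongs to the SLC22 family of membrane carriers for organic cations and carnitine. It was among the 8 most abundant of the 43 by counts. After D3Inj its levels were 188, 172 and 156 CPM on day 4 and 294, 267 and 332 CPM on day 45 in M, and 135, 115 and 121 against 199.9, 147 and 203 CPM in F. In V they were 128, 127 and 145 against 214, 196 and 212 CPM, and in SP 125, 126 and 119 against 209.6, 190.2 and 188 CPM. Old libraries lay above young ones of the same kind throughout, by 0.65 in M (SE 0.12), 0.47 in F (SE 0.12), 0.54 in V (SE 0.12) and 0.59 in SP (SE 0.12) on the log2 scale (edgeR adjusted p 3.41e-05, 0.002, 0.000491 and 0.000153). CG7720 (dSLC5A1), of the SLC5 family of sodium-coupled solute carriers, was called in SP only. There it measured 4.11, 4.93 and 3.72 CPM on day 4 and 12.9, 8.31 and 6.38 CPM on day 45, a fitted 1.04 (SE 0.30, edgeR adjusted p = 0.00601), which was 0.69 (edgeR adjusted p = 0.102) without its highest library. In F it measured 6.21, 5.12 and 6.23 against 4.85, 6.25 and 5.46 CPM, and the fitted value was -0.18 (SE 0.29, edgeR adjusted p = 0.695), the only value below 0 among the 43 genes and 4 kinds. In M it was 0.48 (SE 0.29, edgeR adjusted p = 0.226) and in V 0.21 (SE 0.29, edgeR adjusted p = 0.665).

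CG1582 (DHX57), an ATP-dependent RNA helicase of the DEAH type by its human namesake, and CG15356 (EMSY), whose human namesake is a nuclear protein bound to chromatin repressor complexes, were called in all 4 kinds and varied little between libraries, with a pooled within-group standard deviation of 0.079 and 0.071 on the log2 scale. CG1582 had a lowest, median and highest level of 32.2, 36 and 41.6 CPM over the 12 young D3Inj libraries and 49.1, 55.7 and 62.5 CPM over the 12 old ones, and CG15356 of 83, 86.3 and 101 against 129, 136 and 144 CPM. For neither gene did any old library reach down to a young one. The fitted differences of CG1582 were 0.33 in M (SE 0.062), 0.68 in F (SE 0.062), 0.51 in V (SE 0.062) and 0.60 in SP (SE 0.062), and those of CG15356 0.46 in M (SE 0.055), 0.55 in F (SE 0.056), 0.43 in V (SE 0.055) and 0.54 in SP (SE 0.056). All 8 values were called in edgeR, with adjusted p from 1.93e-11 to 3.81e-05.

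The other genes with the largest sham rises have no stated role. CG14075 (chr3L:18984961-18985634) ranked first by its smallest sham rise, 1.87 in F, with 0.606, 5.34 and 14.3 CPM as lowest, median and highest of the 12 young sham libraries and 1.23, 30 and 62.9 CPM in the old ones. After D3Inj it measured 1.87, 2.29 and 5.56 CPM on day 4 and 16.9, 48.7 and 37.2 CPM on day 45 in V, and 6.96, 2.86 and 5.91 against 36.7, 41.5 and 51.9 CPM in F. It was called in both, with 3.29 (SE 0.83, edgeR adjusted p = 0.00208) in V and 2.96 (SE 0.80, edgeR adjusted p = 0.0036) in F. In M it measured 1.49, 3.77 and 10.8 against 33.1, 32.9 and 1.09 CPM. The third old library was lower than every young one there, and the third of the old sham libraries of M was low as well (22, 30.9 and 1.23 CPM). The fitted value in M was 1.96 (SE 0.79, edgeR adjusted p = 0.0569), 2.51 (edgeR adjusted p = 0.00954) without that old library and 3.01 (edgeR adjusted p = 0.0181) without the highest young one. That young library is one of the 4 high in gut genes, and without those 4 the value was 3.01 too. In SP it was 1.46 (SE 0.77, edgeR adjusted p = 0.148). CG14075 had the widest spread of the 43, a pooled within-group standard deviation of 1.16 on the log2 scale.

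CG30384, CG15784, CG14985 and CG9837 followed in the order of the sham rises, and after D3Inj all were called in all 4 kinds. CG30384 (chromosome arm 2R) had a lowest, median and highest level of 1.16, 2.01 and 4.67 CPM in the young and 7.48, 9.77 and 15.4 CPM in the old D3Inj libraries, with fitted differences of 2.09 in M (SE 0.21), 2.38 in F (SE 0.22), 2.32 in V (SE 0.22) and 2.18 in SP (SE 0.22). CG15784 (X chromosome) went from 3.35, 6.51 and 10.7 to 17.4, 23.1 and 28.3 CPM, with 2.22 in M (SE 0.27), 1.40 in F (SE 0.25), 1.37 in V (SE 0.25) and 1.96 in SP (SE 0.26). Neither gene's old and young libraries overlapped. CG14985 went from 2.28, 2.74 and 3.2 to 7.32, 8.11 and 10 CPM, with 1.54 in M (SE 0.17), 1.58 in F (SE 0.17), 1.32 in V (SE 0.16) and 1.49 in SP (SE 0.17). CG9837 went from 25.6, 28.9 and 31.5 to 56.8, 63 and 71.7 CPM, close to a doubling in every kind, with 1.14 in M (SE 0.074), 0.94 in F (SE 0.074), 1.00 in V (SE 0.074) and 1.07 in SP (SE 0.075). It had the smallest adjusted p of the 43 in each kind, 9.57e-16, 2.93e-13, 5.16e-14 and 1.32e-14 in edgeR.

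**Figure D2:**
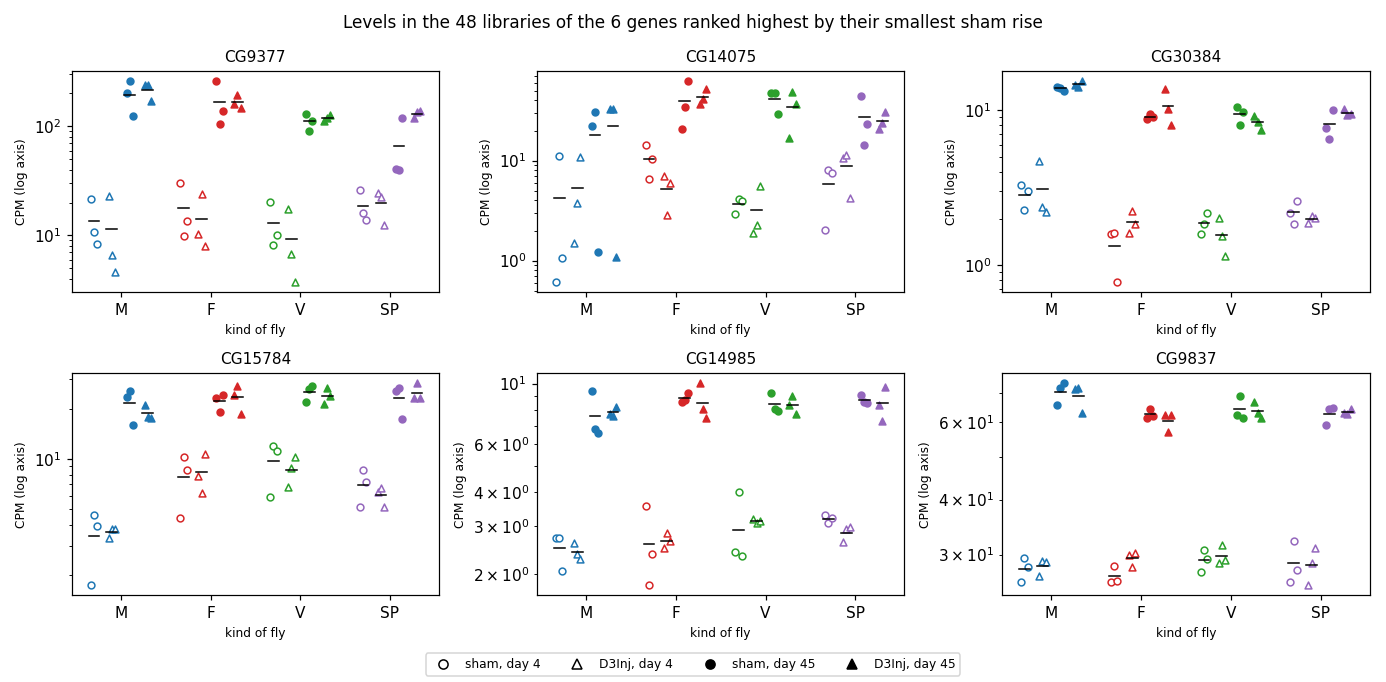
Each panel gives the CPM of one gene on a log axis for M, F, V and SP in each of the 48 libraries, with open symbols for day 4, filled for day 45, circles for sham, triangles for D3Inj and a bar for the mean of 3 libraries. CG9837 lies between 25.6 and 32.3 CPM in every young and between 56.8 and 73.4 CPM in every old library, while CG14075 has old male libraries at 1.23 and 1.09 CPM.

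CG5080, CG12868 and CG42675, next among the large sham rises, were called in all 4 kinds as well. CG5080 had a lowest, median and highest level of 28.6, 44.8 and 61.4 CPM in young and 63.5, 98.4 and 134 CPM in old D3Inj libraries, with fitted differences of 0.72 in M (SE 0.14), 0.85 in F (SE 0.14), 0.85 in V (SE 0.14) and 1.11 in SP (SE 0.14). CG12868 went from 3.27, 4.78 and 6.48 to 9.23, 11.1 and 12.1 CPM, with 0.83 in M (SE 0.14), 1.02 in F (SE 0.14), 1.09 in V (SE 0.14) and 1.25 in SP (SE 0.14). CG42675 went from 4.32, 5.03 and 6.17 to 7.63, 10 and 12.1 CPM, with 0.96 in M (SE 0.17), 1.07 in F (SE 0.17), 0.75 in V (SE 0.17) and 0.70 in SP (SE 0.17). Their old and young libraries did not overlap. Among the abundant genes of the set, CG33144 went from 248, 262 and 286 to 365, 406 and 422 CPM, CG40470 from 147, 165 and 185 to 234, 260.3 and 314 CPM, and CG3328 from 82.7, 93.3 and 107 to 118, 157 and 175 CPM. CG42390 went from 83.3, 90.6 and 106 to 131, 146 and 166 CPM. Old and young libraries of these 4 genes did not overlap, and all 4 were called in all 4 kinds.

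CG9686, CG9689 and CG9691 lie next to each other on the plus strand of the X chromosome, with 1417 bases between the first pair and 771 between the second. CG9686 went from 153, 187 and 209.9 to 296, 329 and 358 CPM after D3Inj, with no overlap and calls in all 4 kinds, the fitted differences being 0.63 in M (SE 0.089), 0.82 in F (SE 0.09), 0.68 in V (SE 0.09) and 0.79 in SP (SE 0.09). Its neighbours were less regular. CG9689 was called in V, 0.70 (SE 0.22, edgeR adjusted p = 0.0154), and SP, 1.03 (SE 0.23, edgeR adjusted p = 0.000521), while M gave 0.41 (SE 0.22, edgeR adjusted p = 0.18) and F 0.48 (SE 0.23, edgeR adjusted p = 0.104). In F its young libraries measured 10.6, 7.79 and 5.55 CPM and its old ones 12.3, 11.9 and 11.4 CPM, and without the first young library the value was 0.74 (edgeR adjusted p = 0.0243). The call in V was lost without replicate 3 of day 45, at 0.54 (edgeR adjusted p = 0.115), and without replicate 2 of day 4, at 0.62 (edgeR adjusted p = 0.077). CG9691 was called in SP only, 0.87 (SE 0.29, edgeR adjusted p = 0.0198), and not without replicate 3 of day 4, at 0.65 (edgeR adjusted p = 0.145), or replicate 1 of day 45, at 0.78 (edgeR adjusted p = 0.0741). Its values in the other kinds were 0.41 in M, 0.17 in F and 0.49 in V.

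On the small chromosome 4, CG31997 and CG33978 lie 1514 bases apart on the minus strand, and 2 of the 43 genes (4.65%) against 11 of the other 2241 CG-numbered genes at 5 CPM or more (0.491%) lie on that chromosome. CG31997 went from 8.45, 9.33 and 11 to 13.4, 17.9 and 20.9 CPM after D3Inj and CG33978 from 6.01, 7.26 and 9.2 to 13.4, 14.6 and 16.3 CPM. Both were called in all 4 kinds, with fitted differences of 0.98 in M (SE 0.10), 0.71 in F (SE 0.10), 0.83 in V (SE 0.10) and 0.70 in SP (SE 0.10) for CG31997 and of 0.83 in M (SE 0.15), 0.85 in F (SE 0.15), 0.84 in V (SE 0.15) and 0.98 in SP (SE 0.15) for CG33978. The X chromosome held 8 of the 43 (18.6%, against 20% of the others), 2L 6, 2R 9, 3L 11 and 3R 7. Exons of the 43 covered a median of 2617 bases (603 to 14137), against 1960 for the other CG-numbered genes. For 30 genes no exonic base was shared with another gene, and 13 shared 1 to 18% of theirs, most of all CG17361 (18.0%) and CG17167 (13.0%), each with a gene on the opposite strand. Of the 13, 10 shared bases with a gene on the opposite strand. Since the strand setting of the counting is not given in the sources used here, reads of such partners may be mixed in these 10. CG30384 (1.04%), CG9837 (3.41%) and CG5953 (1.29%) shared bases with a feature on their own strand and with none on the other. CG33978 shared bases with features on both strands.

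The remaining 15 genes, which have no stated role either, were called higher with age after D3Inj in all 4 kinds. Their fitted log2 differences ran from 0.39 for CG11417 in M to 1.14 for CG31759 in M. CG42365 had a lowest, median and highest level of 7.84, 9.44 and 10.6 CPM in young and 15.3, 18.3 and 20.4 CPM in old D3Inj libraries, CG33158 of 10.6, 11.8 and 15.4 and 18.2, 25.4 and 29.6 CPM, and CG13055 of 14.3, 21.3 and 25.3 and 35.7, 44.5 and 54.1 CPM. For these as for CG31759, CG10126, CG5953, CG11961, CG11436, CG11417, CG5897, CG1146 and CG9953, every old library lay above every young one. In the other 3 the libraries overlapped when pooled over the 4 kinds. Within single kinds the days overlapped only for CG7744 in SP. CG17361 measured 2.73, 3.82 and 5.17 and 4.68, 6.04 and 6.91 CPM, CG7744 6.53, 7.89 and 10.5 and 10.2, 12.4 and 14 CPM, and CG17167 2.93, 4.55 and 5.94 and 4, 7.99 and 11.9 CPM.

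The genes not called in 1 or more kinds after D3Inj numbered 10. CG34166 was called in none. It measured 7.27, 10.4 and 7.26 CPM on day 4 and 12.9, 15.8 and 9.33 CPM on day 45 in M, 4.86, 3.37 and 8.93 against 10.5, 15.8 and 10.1 CPM in F and 6.46, 7.11 and 9.36 against 7.58, 15.9 and 17 CPM in V. In SP it measured 14.7, 13.9 and 6.86 against 47.3, 26.8 and 7.75 CPM, with 1 old library inside the range of the young ones. The fitted values were 0.47 in M (SE 0.51), 0.99 in F (SE 0.52), 0.72 in V (SE 0.51) and 1.14 in SP (SE 0.50), with edgeR adjusted p of 0.54, 0.147, 0.335 and 0.0793, and the value in SP was 1.59 (edgeR adjusted p = 0.0137) without that library. In the sham SP libraries of day 45, which helped to choose the gene, replicate 3 was low too (42.7, 23.4 and 5.31 CPM).

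CG16926 was called in F, V and SP and not in M, with fitted differences of 0.47 in M (SE 0.44), 1.43 in F (SE 0.45), 1.31 in V (SE 0.46) and 1.44 in SP (SE 0.49) and edgeR adjusted p of 0.473, 0.0129, 0.028 and 0.0209. In M its libraries measured 3.35, 5.28 and 6.75 CPM on day 4 and 6.09, 10.5 and 6.81 CPM on day 45. In V they measured 2.73, 3.37 and 2.74 against 4.19, 10.6 and 8.62 CPM. Its calls were lost when single libraries were left out. The call in F was lost without any of 3 libraries, down to 1.08 (edgeR adjusted p = 0.0987) without replicate 2 of day 4. That in V was lost without any of 5, down to 1.01 (edgeR adjusted p = 0.161) without replicate 2 of day 45, and that in SP without either of a pair, down to 1.09 (edgeR adjusted p = 0.141) without replicate 3 of day 4. The call in V was also lost without the 6 libraries high in antimicrobial peptide genes, at 1.26 (edgeR adjusted p = 0.0836). CG5290 was called in M, F and V, and in SP its value was 0.54 (SE 0.22, edgeR adjusted p = 0.0567), or 0.69 (edgeR adjusted p = 0.0249) without replicate 2 of day 45. The value in F, 0.68 (SE 0.22, edgeR adjusted p = 0.0125), was 0.51 (edgeR adjusted p = 0.103) without replicate 2 of day 4. CG43897 was called in F, 0.70 (SE 0.27, edgeR adjusted p = 0.0391), and V, 1.00 (SE 0.27, edgeR adjusted p = 0.00362). It was not called in M, where every old library lay above every young one, or in SP, which gave 0.03 (SE 0.27, edgeR adjusted p = 0.946). The call in V came down to 0.47 (edgeR adjusted p = 0.219) without replicate 2 of day 45, which measured 23.7 CPM against 8.75 and 11.8 CPM in the others, and that in F was lost without any 1 of its 6 libraries. CG41520 was called in M, 0.93 (SE 0.15, edgeR adjusted p = 3.17e-06), and F, 0.60 (SE 0.15, edgeR adjusted p = 0.0013), and not in V, 0.36 (SE 0.15, edgeR adjusted p = 0.061), or SP, 0.30 (SE 0.15, edgeR adjusted p = 0.129).

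Several of these genes also varied most between libraries of one group. The pooled within-group standard deviation on the log2 scale was 1.16 for CG14075, 0.70 for CG34166, 0.66 for CG9377, 0.57 for CG16926, 0.48 for CG31326, 0.39 for CG9691 and 0.36 for CG7720. The library highest in summed fat body markers within its group was also the highest in CG34166 in 12 of 16 groups, in CG16926 in 11, in CG31326 in 10 and in CG11961, a gene of small spread, in 10, and 4.4% of all 8118 features reached 10 or more. Such coincidence was not particular to fat body. For gut markers it reached 10 groups or more for CG14075, CG34166, CG9691 and CG41520 (1.72% of features). For muscle it did for CG31326, CG9691 and CG43897 (2.86%), and for hemocytes for CG30384, CG5080 and CG1146 (1.97%). For yolk it did for CG31326 and CG16926 (2.07%) and for photoreceptors for CG34166 (1.74%). For CG9377 the fat body library was highest in 2 groups. Of the 11 fat body markers 10 were tested for age after D3Inj. In M 1 was called higher and 1 lower, in F 2 and 1, in V 3 and 0 and in SP 5 and 0. Among the fat body markers, Fbp2 was at 0 in 37 of 48 libraries, and apolpp, the most abundant, was at 1481 to 5184 CPM. Of the 10 muscle markers 2 were called higher in M, 2 in F, 4 in V and 2 in SP, and of the 10 neuronal markers 8 were called lower in every kind. The 8 glial markers went both ways, with 3 called higher in M, 4 in F, 3 in V and 3 in SP, and 3 lower in every kind. Of the 9 hemocyte markers 5 were called lower in every kind, and 2, 0, 1 and 2 higher in M, F, V and SP. Of 15 photoreceptor markers 7 were called lower in M and 1 in each other kind, and 1, 2, 2 and 4 higher. The part of RNA from any of these cells in the ageing of these genes was not tested.

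**Figure D3:**
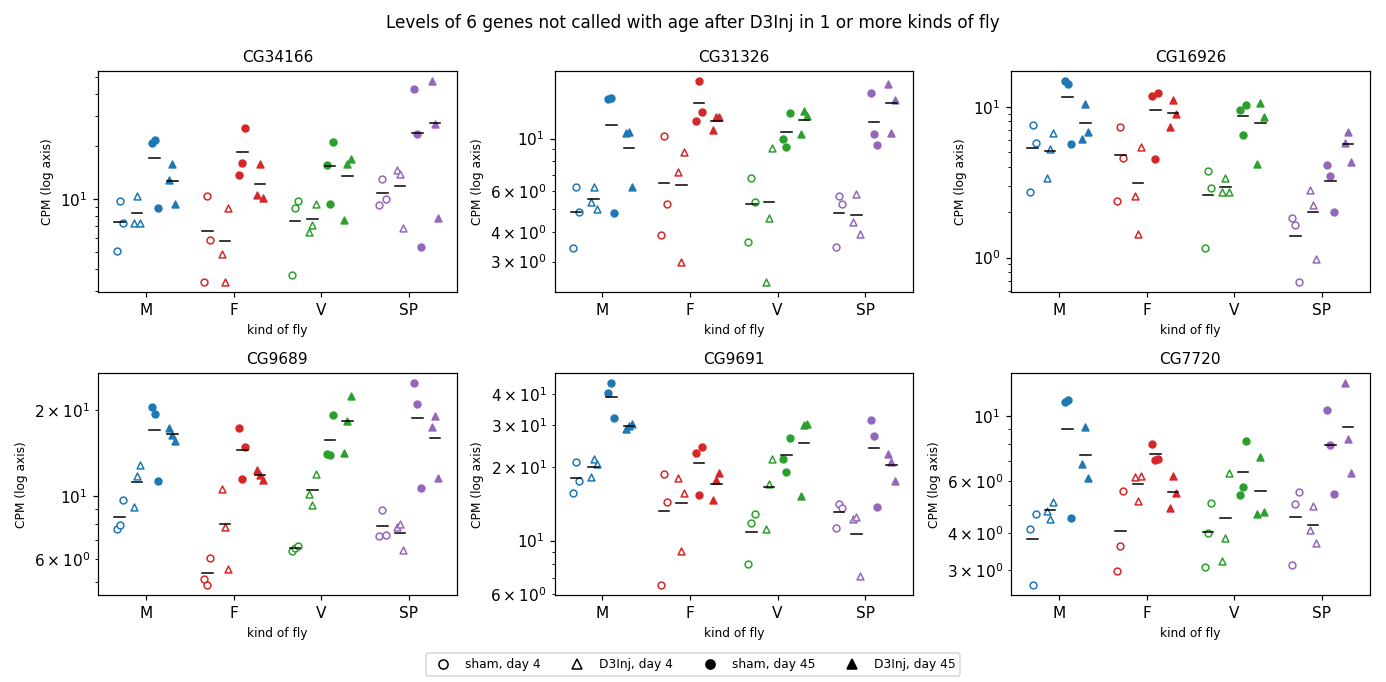
Levels of 6 genes that were not called with age after D3Inj in 1 or more kinds of fly, with CPM on a log axis for M, F, V and SP (open symbols for day 4, filled for day 45, circles for sham, triangles for D3Inj, bars for means of 3). Old libraries reach down to the young ones in several groups, as for CG34166 in SP, where the old D3Inj libraries measured 47.3, 26.8 and 7.75 CPM.

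Whether ageing differed between males and females was tested as a difference of the D3Inj ageing responses, M against the mean of the 3 kinds of female. None of the 43 genes was called, against 0.32% of all features. At an unadjusted p under 0.05 there were 7 of the 43 (16.3%, against 9.71% of all features), and DESeq2 called none either. CG1582 had the smallest edgeR adjusted p, with a difference of -0.26 (SE 0.071, edgeR adjusted p = 0.0864), the rise being smaller in M. A difference between the ageing responses of F and V was also called for none of the 43 (0.0% of all features). At an unadjusted p under 0.05 there were 0 (4.54% of all features), and DESeq2 called 0. The fitted differences ran from -0.39 (CG7720) to 0.32 (CG42675), and the missing calls do not show that the responses were equal. Ageing in SP was not tested against F or V.

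Levels were then compared between males and females, over sham and D3Inj libraries together (6 male and 18 female libraries a day), with the sham libraries being those that chose the genes by age. On day 4, 10 of the 43 were called higher in males (9.84% of all features) and 10 higher in females (8.96%). On day 45, 8 were called higher in males (7.3%) and 5 in females (8.74%). CG11417, CG30384, CG6356, CG9691 and CG9953 were higher in males on both days, and CG1146, CG13055, CG17167, CG5080 and CG5953 higher in females on both. No gene was called in opposite directions, and 20 were called on neither day. In the D3Inj libraries alone, 3 males against 9 females, the calls were 5 and 4 on day 4 and 3 and 4 on day 45.

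CG6356, the SLC22 family transporter, separated the sexes on both days. Its male libraries measured 166 ± 16.4 CPM (SD, n = 6) and its female libraries 123 ± 8.5 CPM (SD, n = 18) on day 4, and 306 ± 24.4 and 203 ± 30.2 CPM on day 45, with no overlap on either day. The fitted log2 difference was 0.45 (SE 0.042, edgeR adjusted p = 3.34e-08) on day 4 and 0.58 (SE 0.077, edgeR adjusted p = 4.32e-06) on day 45. CG30384 was higher in males by 0.75 (SE 0.15, edgeR adjusted p = 0.000842) on day 4 and 0.61 (SE 0.083, edgeR adjusted p = 5.5e-06) on day 45. CG9691 gave 0.58 (SE 0.17, edgeR adjusted p = 0.0156) and 0.64 (SE 0.13, edgeR adjusted p = 0.000856), and its call on day 4 was lost without replicate 2 of the sham males, at 0.52 (edgeR adjusted p = 0.0614). CG16926 was higher in males on day 4, 1.02 (SE 0.27, edgeR adjusted p = 0.00869), or 0.86 (edgeR adjusted p = 0.0523) without the same library, and not on day 45, 0.45 (SE 0.20, edgeR adjusted p = 0.141). CG9689 was likewise called on day 4, 0.41 (SE 0.10, edgeR adjusted p = 0.00574), and not on day 45, 0.08 (SE 0.14, edgeR adjusted p = 0.781). In the D3Inj libraries alone, which the rule did not use, the calls of these last 3 genes were lost. They gave 0.59 (edgeR adjusted p = 0.123) and 0.50 (edgeR adjusted p = 0.108) for CG9691 on day 4 and day 45, 0.98 (edgeR adjusted p = 0.117) for CG16926 and 0.42 (edgeR adjusted p = 0.0607) for CG9689 on day 4.

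Of the genes higher in males on day 45, CG9953 measured 99.5 ± 7.96 CPM in males (SD, n = 6) and 75.2 ± 5.21 CPM in females (SD, n = 18), without overlap. CG9377, the serine protease homolog, had a lowest, median and highest level of 125, 220.0 and 258 CPM in males and 40, 123 and 261 CPM in females on day 45, when the fitted difference was 0.73 (SE 0.17, edgeR adjusted p = 0.00377), or 0.63 (edgeR adjusted p = 0.133) and no call in the D3Inj libraries alone. On day 4 the difference was -0.24 (SE 0.34, edgeR adjusted p = 0.712), with overlapping libraries. The sexes overlapped on day 45 too.

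Among the genes higher in females, CG15784 measured 3.53 ± 0.963 CPM in males (SD, n = 6) and 7.88 ± 2.27 CPM in females (SD, n = 18) on day 4, a fitted -1.12 (SE 0.20, edgeR adjusted p = 0.000171). On day 45 the means were 20.1 ± 3.73 and 23.7 ± 3.18 CPM and the difference, -0.26 (SE 0.094, edgeR adjusted p = 0.0683), was not called. It would be called without replicate 2 of sham M, -0.32 (edgeR adjusted p = 0.0355), replicate 3 of D3Inj F, -0.28 (edgeR adjusted p = 0.0372), or replicate 3 of sham SP, -0.28 (edgeR adjusted p = 0.0235). CG17167 differed by -0.53 (SE 0.11, edgeR adjusted p = 0.0011) on day 4 and -0.81 (SE 0.12, edgeR adjusted p = 1.92e-05) on day 45, when every female library lay above every male one. CG5080 differed by -0.38 (SE 0.058, edgeR adjusted p = 3.55e-05) and -0.59 (SE 0.093, edgeR adjusted p = 4.13e-05), and CG13055 by -0.33 (SE 0.059, edgeR adjusted p = 0.000262) and -0.48 (SE 0.062, edgeR adjusted p = 3.31e-06). CG5953 and CG1146 gave -0.38 (SE 0.059, edgeR adjusted p = 4.04e-05) and -0.28 (SE 0.054, edgeR adjusted p = 0.000468) on day 45, and CG31759 -0.41 (SE 0.11, edgeR adjusted p = 0.00965) on day 4. On day 45 the male and female libraries of CG5080 and CG5953 did not overlap. In the D3Inj libraries alone the calls of CG17167 on day 4, -0.47 (edgeR adjusted p = 0.0559), of CG31759 on day 4, -0.39 (edgeR adjusted p = 0.131), and of CG1146 on day 45, -0.24 (edgeR adjusted p = 0.0513), were lost.

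**Figure D4:**
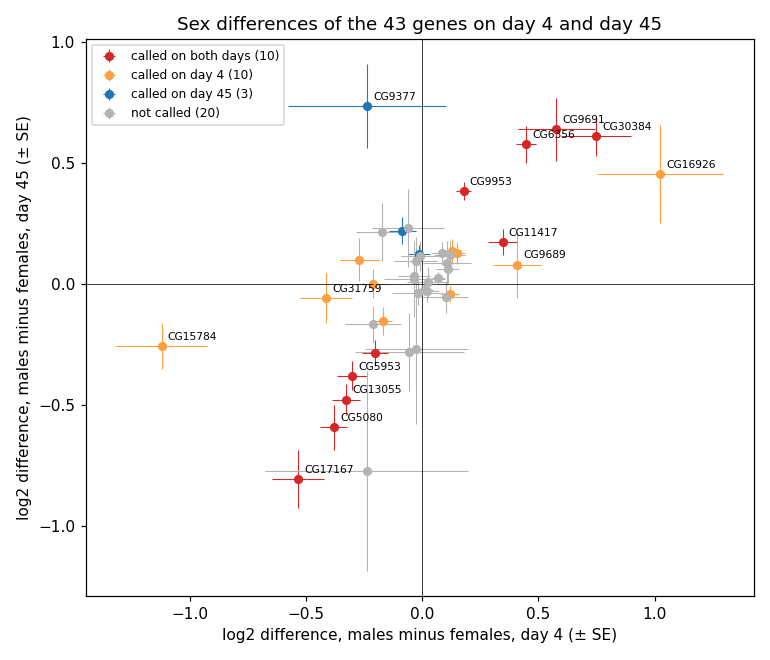
Each point is one of the 43 genes, with the fitted log2 difference of males minus females on day 4 on the horizontal and on day 45 on the vertical axis, and bars of 1 standard error. Colours mark the 10 genes called on both days, the 10 called on day 4, the 3 called on day 45 and the 20 called on neither, and CG9377 is the called gene furthest from the diagonal, with -0.24 on day 4 and 0.73 on day 45.

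Mating, through the sex peptide that males transfer with their seminal fluid, switches the female fly to egg laying and lower receptivity. By design the 3 kinds of female separate mating as such from the receipt of sex peptide. Levels in F and in SP were each compared with V, over sham and D3Inj libraries together, and the sham libraries had also chosen the genes. Levels in F were not tested against SP, so a dependence on sex peptide was not tested. On day 4, F against V called 1 of the 43 genes, CG5080, against 0.0957% of all features called higher. Its levels in F were 49.7, 53.7 and 41.9 CPM in sham and 61.4, 58.2 and 58.1 CPM in D3Inj libraries, and in V 32.6, 38.3 and 35.4 against 45.1, 41.6 and 42 CPM. Every F library but the lowest sham one lay above every V library. The fitted difference was 0.46 (SE 0.069, edgeR adjusted p = 0.00486), and in the D3Inj libraries alone 0.48 (edgeR adjusted p = 0.202). Without the 6 libraries high in antimicrobial peptide genes it was 0.52 (edgeR adjusted p = 0.102), so that the call was lost in both. In SP the gene measured 41.9, 46.5 and 47.5 against 44.5, 46.5 and 47.5 CPM, and SP against V gave 0.22 (SE 0.069, edgeR adjusted p = 0.254). On day 45, F against V gave 0.45 (SE 0.11, edgeR adjusted p = 0.576) for CG5080 and no call among the 43 (0.0% of all features). SP against V called none of the 43 on day 4 (0.0%) or day 45 (0.0262%). At an unadjusted p under 0.05, F against V held 7 of the 43 on day 4 (16.3%, against 5.95% of all features) and 5 on day 45 (11.6%, against 6.72%). SP against V held 6 (14%, against 10.8%) and 11 (25.6%, against 9.37%). DESeq2 called the same number as edgeR in each, 1, 0, 0 and 0.

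Whether the mild trauma changed these genes was tested by comparing D3Inj with sham libraries of each kind on each day, with sham libraries that had also chosen the genes. None of the 43 was called in any of the 8 comparisons, in edgeR or in DESeq2. Of all features 0.00683% were called in M, 0.0% in F, 0.0547% in V and 0.00683% in SP on day 4, and 0.0% in each kind on day 45. At an unadjusted p under 0.05 there were 2, 3, 4 and 0 of the 43 in M, F, V and SP on day 4, and 4, 0, 1 and 3 on day 45. Of all features 2.97, 5.35, 4.31 and 4.19% were under it on day 4 and 5.7, 4.78, 1.88 and 6.44% on day 45. The median log2 difference of the 43 was 0.04, 0.01, 0.01 and -0.01 in M, F, V and SP on day 4 and -0.05, -0.03, -0.04 and -0.0048 on day 45. As the rule took genes low in sham flies on day 4 and high on day 45, it bears on these medians, upwards on day 4 and downwards on day 45, and they do not measure an effect of injury apart from the choice of genes.

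CG9689 came closest on day 4. In V it measured 6.42, 6.59 and 6.69 CPM in sham and 10.2, 9.29 and 12 CPM in D3Inj flies, and in F 5.12, 4.88 and 6.07 against 10.6, 7.79 and 5.55 CPM. In M it measured 7.67, 7.93 and 9.73 against 9.15, 11.7 and 12.9 CPM, and in SP 7.24, 8.97 and 7.33 against 7.83, 8.02 and 6.48 CPM. The sham and D3Inj libraries of V did not overlap, and those of the other kinds did. The fitted differences were 0.66 (SE 0.18, edgeR adjusted p = 0.588) in V, 0.57 (SE 0.19, edgeR adjusted p = 0.917) in F, 0.41 (SE 0.18, edgeR adjusted p = 1) in M and -0.08 (SE 0.18, edgeR adjusted p = 1) in SP, none of them called. On day 45 CG9377 gave the highest value, 0.96 (SE 0.32, edgeR adjusted p = 0.759) in SP, where sham libraries measured 40.4, 40 and 118 CPM and D3Inj libraries 118, 134 and 139 CPM. Without replicate 3 of the sham group this was 1.69 (edgeR adjusted p = 0.036), which would make it the 1 gene called. The difference in injury response between M and F, F and V or F and SP was called for none of the 43 on either day (0.0% of all features), in edgeR or in DESeq2, and at an unadjusted p under 0.05 for 1, 0 and 2 on day 4 (3.58, 4.3 and 4.18% of all features) and 3, 1 and 2 on day 45 (5.38, 3.06 and 5.35%).

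**Figure D5:**
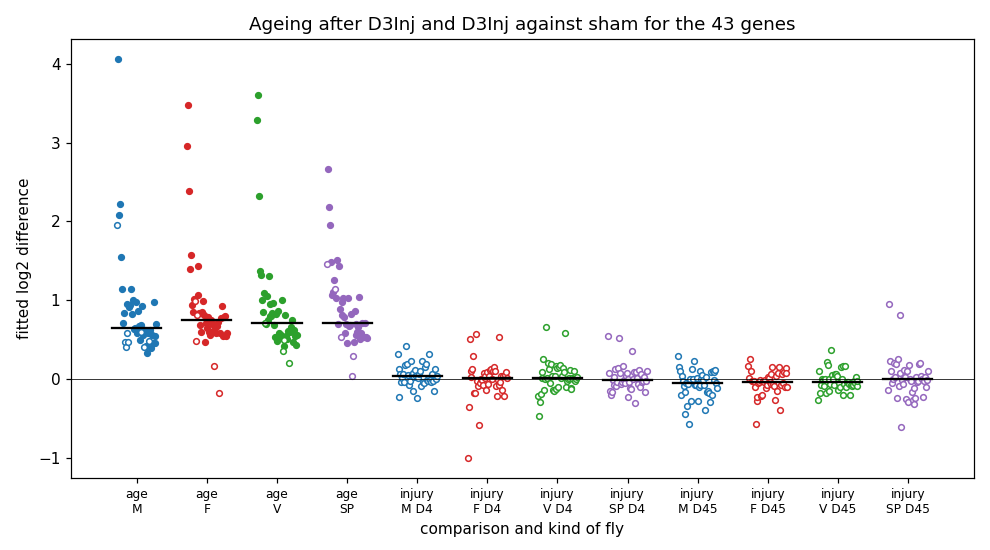
The vertical axis gives the fitted log2 difference of the 43 genes in 12 comparisons: day 45 against day 4 after D3Inj in M, F, V and SP, then D3Inj against sham in the same kinds on day 4 and day 45. Filled points were called in edgeR, open ones were not, and bars are medians. No point is filled in the 8 injury comparisons, whose sham libraries also chose the genes.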

How the data were processed

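The authors checked reads of the ribosomal-RNA-depleted, stranded libraries with FastQC, aligned them with STAR to dm6 with an Ensembl annotation and counted them per gene with featureCounts on Galaxy. Neither tool versions nor a strand setting are given in the sources used here. Each table as deposited is 1 column of raw counts for 23932 features, of which 17869 are genes. Column headers named each library, those reading "young" being taken as D3Inj, and 0 columns were left out.

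CPM is the count divided by the column total, times 1000000. Tests were edgeR 4.0.16 (R 4.3.3) quasi-likelihood F tests with TMM and filterByExpr, with 1 coefficient per group: all 48 libraries together for age (15640 features) and the 24 of a day for sex, mating and injury (14631 on day 4, 15286 on day 45). A call is a Benjamini-Hochberg adjusted p under 0.05 over all features. Positions and overlaps are from the Ensembl BDGP6 annotation, synonyms from RefSeq.

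The genes and marker lists were chosen with earlier results of these data known. Values were printed for the 12 largest sham rises, the 8 highest mean levels, the genes at the threshold, at most 5 called genes per direction for sex and mating, the genes not called with age after D3Inj, and 5 genes that also stand in gene lists of the study on the response to trauma (CG9377, CG5080, CG34166, CG9689 and CG31326), which were drawn from these samples. All other genes of the set, such as CG1582, CG31997 and CG33978, were added for completeness after their values were seen. No protein or DNA sequence was used. Alternatives were DESeq2 1.42.0, no filter on low counts, a replicate block, other sets of libraries, leaving out each library, and the record in place of the header. Leaving out the 6 libraries high in antimicrobial peptide genes was added after the data were seen. Where a group was left with 1 library, that library was assumed to vary like the other groups.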

Additional observations from a re-analysis of the deposited data

How the results depend on the processing

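With CPM on TMM library sizes 24 genes met the rule, all among the 43. With a rise of at least 1 it was 9, with a mean of at least 1 CPM 83, and without each sham library in turn 38 to 49. Without the 4 day 4 libraries highest in gut genes it was 37, of which 35 were among the 43.

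The counts called higher with age after D3Inj were 34 to 36 in M, 35 to 38 in F, 34 to 38 in V and 34 to 38 in SP over the fits that left out 1 library. They stayed within 1.5 times of the reported counts in DESeq2, without the filter, with the D3Inj libraries alone and without the gut-high libraries. For sex, the counts without 1 library were 8 to 11 (males) and 7 to 11 (females) on day 4, and 6 to 10 and 5 to 7 on day 45. From the D3Inj libraries alone they were 5 and 4 on day 4 and 3 and 4 on day 45, and F against V on day 4 called 0. These contrasts rest on fewer libraries. Without the 6 libraries high in antimicrobial peptide genes 38 genes met the rule, F against V on day 4 called 0, and the sex counts were 9 and 9 on day 4 and 6 and 6 on day 45. Injury called 0 genes in every setting run, apart from 1 in SP on day 45 without 1 sham library.

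Over all pairs of groups the median correlation of deviations was -0.0013 for the same replicate number and 0.0019 for other numbers. Between sham and D3Inj libraries of the same kind, day and number it was positive throughout in M (0.065 to 0.324) and V (0.0203 to 0.241). It had both signs in F (-0.382 to 0.116) and SP (-0.0199 to 0.109). Whether libraries were paired by number within a kind and day was not tested. With replicate number as a block the age counts were 35 in M, 38 in F, 39 in V and 38 in SP, the sex counts 11 and 10 on day 4 and 9 and 6 on day 45, and mating and injury were as reported. The block had the same terms for all kinds, so it would not remove a pairing within a kind.

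By the record's sample names, which the roX RNAs contradict, 0 genes met the rule, 0 were called with age after D3Inj in any kind, and 0 were called for sex on either day in either direction. The log2 differences of called genes that changed sign under those names were, with age after D3Inj in M, CG14985 -0.086, CG31759 -0.037, CG31997 -0.087, CG41520 -0.089, CG9686 -0.055. They were, in F, CG14075 -0.15, CG16926 -0.42, CG9377 -0.31. They were, in V, CG12868 -0.073, CG14075 -1.24, CG15356 -0.013, CG15784 -0.11, CG1582 -0.037, CG16926 -0.89, CG31326 -0.27, CG33978 -0.047, CG42675 -0.31, CG43897 -0.26, CG5080 -0.20, CG6356 -0.014, CG9377 -0.15, CG9686 -0.030, CG9689 -0.062. They were, in SP, CG1582 -0.088, CG6356 -0.15, CG9691 -0.21. For the contrast of males and females they were, on day 4, CG13055 0.50, CG15784 0.75, CG17167 0.55, CG31759 0.38, CG5080 0.25, CG6356 -0.11, CG9691 -0.13, and on day 45, CG1146 0.13, CG13055 0.19, CG17167 0.27, CG5080 0.24, CG5953 0.14.

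Every gene had at least 17 counts in every library. How depth and the spread between 3 libraries each limit the calls was not tested.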
